A study of Mus musculus with 6 samples.

Results

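Genes of cholesterol synthesis and of its feedback control were examined in whole brain of mice lacking TRMT1L (TRMT1L KO) and of wild-type mice (WT). The 7 genes, Hmgcs1, Sqle, Idi1, Lss, Dhcr7, Cyp51 and Insig1, were taken by their symbols in GENCODE M21, and each symbol matched exactly 1 of the 55450 genes counted. All 7 passed the filter on low counts, as did 21237 genes in all. Of the 7, 6 encode enzymes of the pathway and Insig1 encodes a sterol sensor, so none is itself an uptake receptor, and uptake genes are described from a separate list. The study holds 6 libraries of total RNA selected for long molecules, 3 from KO and 3 from WT brain, described by the submitters as biological triplicates. TRMT1L is a relative of the tRNA methyltransferase TRMT1. The labels give neither the way the allele was made nor the age, sex, strain or litter of the animals.

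Cholesterol is built from acetyl-CoA by way of mevalonate, isoprenoid units, squalene and lanosterol. The brain makes its own, because lipoproteins of the blood hardly cross the blood-brain barrier, and oligodendrocytes need large amounts of it for myelin, with astrocytes as a further source. The genes of the pathway share a switch. When sterols in the endoplasmic reticulum run low, SCAP escorts the transcription factor SREBP-2 to the Golgi, where it is cut free to enter the nucleus, and when sterols are plentiful the INSIG proteins hold the complex back.

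The promoters of these genes were inspected for the short motifs that SREBP-2 and its usual partners NF-Y and Sp1 recognise. Windows from 250 bases before to 50 bases after a transcription start were found in RefSeq (GRCm38.p6) for 6 of the 7 genes, and Sqle was not matched. The motifs searched on both strands were CCAAT (the NF-Y box), GGGCGG (a GC box) and TCACNCCAC (a sterol element, with N for any base). A gene was counted when any of its windows held the motif, and Dhcr7 had 3 windows. CCAAT was present for 6 of 6 genes, against 41.1% of the 27025 genes with such windows. By window it was 6 of 8 against 37.4% of all windows, and for Dhcr7 it was found only at a start well inside the annotated gene and not in the window at its annotated start. GGGCGG was likewise present for 6 of 6, against 38.2% of all genes. TCACNCCAC was found for Hmgcs1 alone, 137 bases before its start, against 1.44% of all genes. A looser form, CACNNCAC, which contains part of the sterol element, was found for 3 of 6 genes against 18.2% of all. The upstream stretches of 3 genes are printed to show how the motifs lie relative to each other. They read 5′ to 3′ on the gene's strand, outside every annotated exon, and capitals mark matches to these 3 motifs on either strand. A CCAAT box on the other strand appears as ATTGG. A GC box on the other strand appears as CCGCCC.
Hmgcs1, chr13:119690104-119690350, plus strand: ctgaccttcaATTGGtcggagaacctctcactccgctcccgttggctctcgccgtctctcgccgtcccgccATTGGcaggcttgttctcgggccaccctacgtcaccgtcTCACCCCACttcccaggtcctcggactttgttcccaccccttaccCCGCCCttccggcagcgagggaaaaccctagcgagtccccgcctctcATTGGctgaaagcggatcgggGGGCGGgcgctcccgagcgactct
Lss, chr10:76531429-76531557, plus strand: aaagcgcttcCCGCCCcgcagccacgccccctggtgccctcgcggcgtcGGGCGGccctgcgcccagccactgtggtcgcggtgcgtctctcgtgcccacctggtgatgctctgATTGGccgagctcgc
Insig1, chr5:28071173-28071301, plus strand: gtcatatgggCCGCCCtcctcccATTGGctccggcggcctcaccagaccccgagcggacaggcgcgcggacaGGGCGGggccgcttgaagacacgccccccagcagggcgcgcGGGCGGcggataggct

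A match of letters in a window is a description, and binding was not measured. In the Hmgcs1 stretch the sterol element lies between a CCAAT box that begins 176 bases before the start and a GC box that begins 92 bases before it.

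Counts in genes on the strand used ranged from 31201119 to 36145961 per library. The targeted gene Trmt1l had between 1034 and 1279 counts in the WT libraries and between 93 and 106 in the KO libraries, on the side that each genotype label implies. Abundance is given below as CPM, counts relative to the library size after TMM scaling, and log2 fold changes are KO over WT with their standard error (SE). In whole brain, fewer cells of a type and less RNA per cell cannot be told apart in any of these values.

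All 7 genes had a lower mean in KO than in WT, by between 2.98% and 14.6%, but none passed the threshold. In edgeR (quasi-likelihood test, Benjamini-Hochberg adjustment over all genes), 0 of the 7 had an adjusted p-value under 0.05, and the values ran from 0.614 for Idi1 to 0.916 for Dhcr7. The background share of all genes past that threshold was 0.00942%. Neither limma-voom nor the DESeq2 Wald test called any of the 7, with 1 gene each at the unadjusted level, namely Idi1 in limma-voom, against 3.41% of all genes lower and 4.28% higher, and Insig1 in DESeq2, against 2.04% lower and 3.42% higher. DESeq2's own filter left 3 of the 7 without an adjusted p-value, and with that filter off it again called none. Without adjustment, 1 of the 7, Idi1, had a p-value under 0.05 in edgeR, against 3.38% of all genes lower and 4.54% higher in KO at that level. Every KO library lay outside the WT range on the same side for 1 of the 7, again Idi1, against 6.97% of all genes with every KO library below every WT library and 7.46% with every KO library above. The median log2 fold change of the 7 genes was -0.12, beside 0.00013 over all genes tested, of which 49.9% were below 0. Among the 10781 genes at least as abundant as Idi1, the least abundant of the 7, 44.7% were below 0 and the median was 0.012. The 7 genes and the lists below were chosen with earlier results of these data known. Their comparison with all genes is therefore a description and not independent support.

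The route begins with Hmgcs1 (ENSMUSG00000093930.2, chromosome 13 from 119690379 to 119708260, plus strand of GRCm38), the cytosolic enzyme that condenses acetyl-CoA with acetoacetyl-CoA into HMG-CoA. Its abundance was 237, 209 and 224 CPM in the WT libraries, in the order of replicates 1 to 3 kept throughout, against 235, 201 and 196 CPM in the KO libraries. KO library 1 lay close to the highest WT library, while KO libraries 2 and 3 lay below all WT libraries. The means were 223 ± 14.2 CPM for WT and 211 ± 20.97 CPM for KO (SD, n = 3), a log2 fold change of -0.08 (SE 0.0689, adjusted p = 0.795). The interval of 2 SE on either side ran from -0.22 to 0.06.

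Idi1 (ENSMUSG00000058258.14, chromosome 13 from 8885501 to 8892451, plus strand) encodes the isomerase that interconverts the C5 isoprenoid units from which all later intermediates are assembled. Its abundance was 11.02, 10.1 and 9.78 CPM in the WT libraries and 9.47, 8.496 and 8.494 CPM in the KO libraries. Every KO library lay below every WT library, with KO library 1 the nearest to the WT range. The WT mean of 10.3 ± 0.636 CPM compared with 8.82 ± 0.562 CPM for KO (SD, n = 3). Idi1 thus had a log2 fold change of -0.23 (SE 0.0936). In edgeR its adjusted p-value was 0.614 and its unadjusted one 0.0328. The unadjusted p-value was 0.0785 with GC correction, under which the groups also overlapped, and 0.0605 in DESeq2. Leaving out any 1 of WT libraries 1 and 2 and KO libraries 2 and 3 also brought it to between 0.0542 and 0.133. Idi1 had the fewest reads of the 7, between 286 and 401 counts per library. GENCODE M21 also lists 5 processed pseudogenes that resemble Idi1 at 87.0% to 100% identity over 679 to 684 bases, 1 of them (Gm13502) identical over its aligned part. Reads that map to several places are not counted, so the Idi1 counts are uncertain in level. No other of the 7 genes had a transcript of another gene this similar (at least 85% identity over 500 bases).

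Sqle (ENSMUSG00000022351.14, chromosome 15 from 59315077 to 59331192, plus strand) encodes squalene epoxidase, the first oxygen-dependent step and a control point of the sterol branch. Its abundance was 51.0, 46.7 and 51.1 CPM in WT and 47.7, 42.5 and 46.2 CPM in KO. Only KO library 1 lay within the WT range. The means were 49.6 ± 2.52 and 45.5 ± 2.69 CPM (SD, n = 3), a log2 fold change of -0.12 (SE 0.0615, adjusted p = 0.643).

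Lss (ENSMUSG00000033105.12, chromosome 10 from 76531588 to 76557138, plus strand) encodes lanosterol synthase, which folds oxidised squalene into the first sterol. Its abundance was 57.7, 53.6 and 48.1 CPM in WT and 54.3, 45.1 and 48.6 CPM in KO. The groups overlapped, with only KO library 2 below the lowest WT library. The log2 fold change was -0.11 (SE 0.0796, adjusted p = 0.768).

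Cyp51 (ENSMUSG00000001467.5, chromosome 5 from 4081145 to 4104746, minus strand) encodes the cytochrome P450 that strips a methyl group from lanosterol. It stood at 62.4, 56.3 and 60.3 CPM in WT and at 59.3, 54.2 and 51.0 CPM in KO. KO libraries 2 and 3 were below all WT libraries, and KO library 1 was within their range. The means were 59.7 ± 3.10 and 54.8 ± 4.21 CPM (SD, n = 3), and the log2 fold change was -0.12 (SE 0.0649, adjusted p = 0.660). The last 166 bases of the gene overlap Akap9 on the other strand. Among the 7 genes, overlapping features were all on the opposite strand, and the counting used strand.

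Dhcr7 (ENSMUSG00000058454.15, chromosome 7 from 143823145 to 143848410, plus strand) encodes the reductase that turns 7-dehydrocholesterol into cholesterol. Its difference was the smallest of the 7 with all libraries and no GC correction. With GC correction Dhcr7 had -0.08 and Hmgcs1 -0.04, without WT library 3 Dhcr7 had -0.13 and Hmgcs1 -0.08, and without KO library 3 Dhcr7 had -0.042 and Hmgcs1 -0.034, so that Hmgcs1 had the smaller difference in each. Its abundance was 32.5, 31.4 and 26.2 CPM in WT and 29.7, 28.6 and 29.1 CPM in KO, so that all KO libraries lay inside the WT range. The lowest library of all was WT library 3. The log2 fold change was -0.04 (SE 0.0784, adjusted p = 0.916), with an interval of 2 SE on either side from -0.20 to 0.11.

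Insig1 (ENSMUSG00000045294.11, chromosome 5 from 28071363 to 28078662, plus strand) encodes a membrane protein that retains the SCAP and SREBP complex, and it is itself a target of SREBP-2. Its abundance was 64.7, 58.9 and 55.7 CPM in WT and 59.5, 42.7 and 53.1 CPM in KO. KO library 2 stood well below all others, KO library 3 just below the lowest WT library, and KO library 1 inside the WT range. The means were 59.8 ± 4.57 and 51.8 ± 8.47 CPM (SD, n = 3). The log2 fold change was -0.21 (SE 0.101, adjusted p = 0.638), and without KO library 2 it was -0.09.

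**Figure D1:**
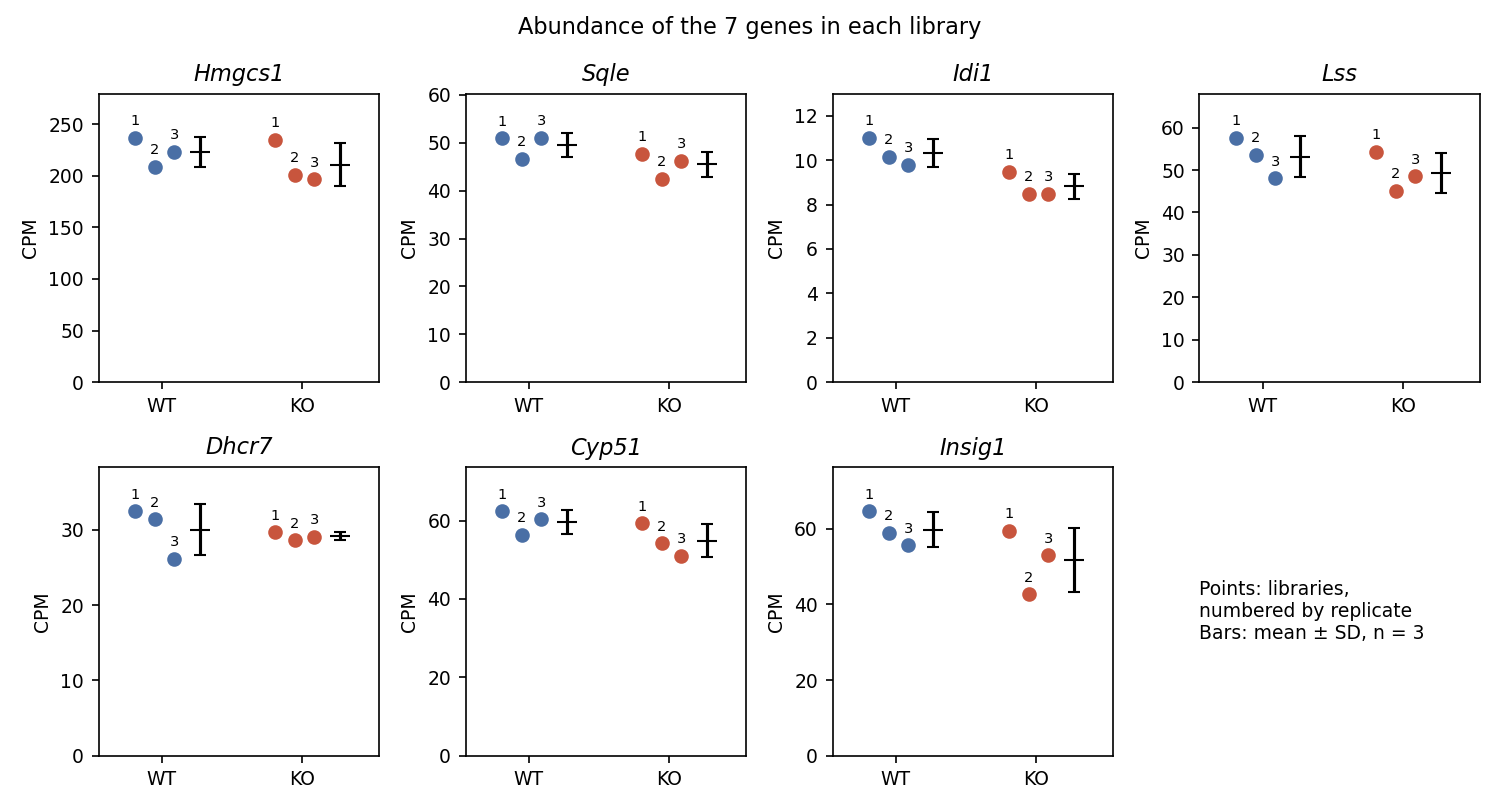
Abundance in CPM (vertical axes, from 0) of each of the 7 genes in the 3 WT and 3 KO libraries, numbered by replicate, with the mean and SD of each group as bars. KO library 1 lies within the WT range for 6 of the 7 genes, and Idi1 is the one gene whose groups do not overlap.

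The 7 genes varied together from library to library, and the split did not follow genotype alone. Measured against each gene's WT mean, their median log2 deviation was 0.10, -0.02 and -0.08 for the 3 WT libraries, and -0.01, -0.22 and -0.17 for the 3 KO libraries. All 7 genes were above their WT mean in WT library 1, and all 7 were below it in KO libraries 2 and 3. KO library 1, with 5 of the 7 below, was closer to the WT libraries. The summed abundance of the 7 genes was 516, 466 and 475 CPM in WT and 495, 423 and 433 CPM in KO. In both genotypes library 1 was thus the highest and library 2 the lowest. When KO library 1 was left out, 6 of the 7 genes (all but Dhcr7) had an unadjusted p-value under 0.05 in edgeR, against 3.78% of all genes lower in KO in that fit. None had an adjusted one, the smallest being 0.496 for Insig1. Leaving out WT library 1, KO library 2 or KO library 3 in turn left 0 of the 7 at the unadjusted level, and leaving out WT library 2 or 3 left 2, against 2.04% to 3.58% of all genes lower in those 5 fits. The fold changes moved with the library left out: Hmgcs1 had -0.17 without KO library 1 and -0.03 without KO library 3, and Lss had -0.18 without KO library 1 and -0.04 without WT library 1. Cyp51 ranged from -0.18 without KO library 1 to -0.07 without KO library 3, and Sqle from -0.17 without WT library 2 to -0.08 without KO library 2.

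**Figure D2:**
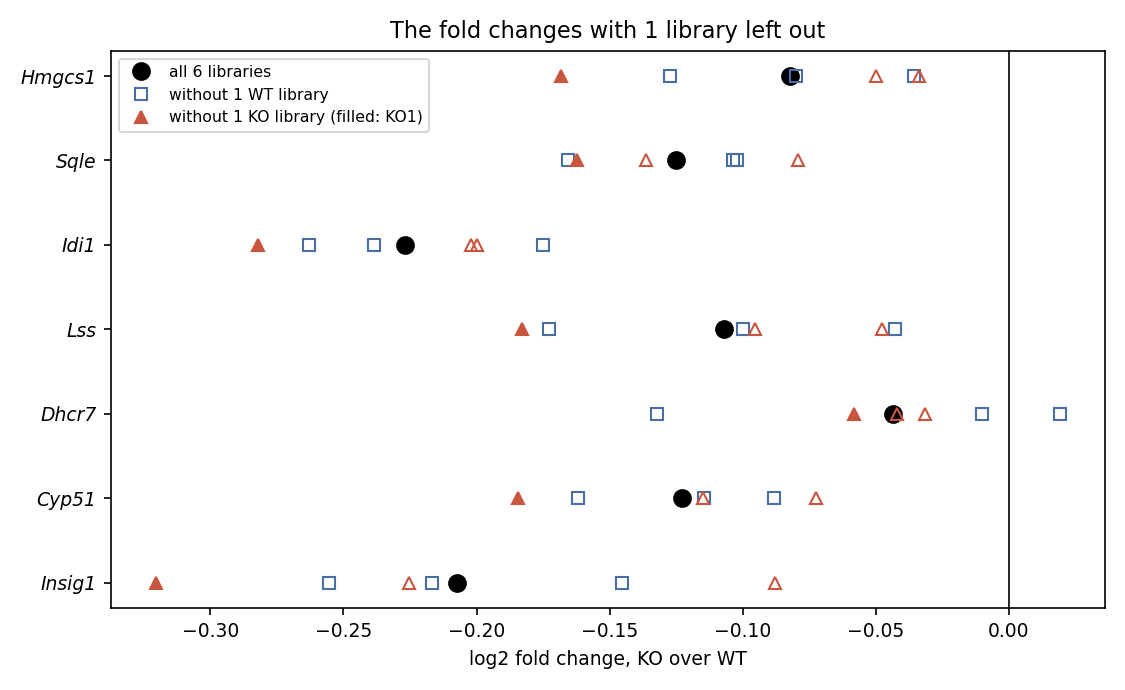
Log2 fold change of KO over WT for each gene with all 6 libraries (black) and with 1 library left out (blue squares for a WT library, red triangles for a KO library, filled for KO library 1). Without KO library 1 the value of Insig1 moved to -0.32, and Dhcr7 crossed 0, to 0.02, without WT library 1.

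Pearson correlations of log2 CPM over the 6 libraries were positive for 21 of the 21 pairs among the 7 genes, from 0.03 to 0.94 with a median of 0.75. These values are a description, since all genes share the same 6 libraries and scaling factors. The share of positive pairs among other genes was not computed. Dhcr7 accounted for the low end: its 6 pairs ran from 0.03 to 0.77, and the 15 pairs without it from 0.59 to 0.94. The closest pair was Hmgcs1 and Cyp51. After each gene was centred within its genotype, 20 of the 21 correlations remained positive, with a median of 0.66.

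Genes elsewhere with the most similar pattern were sought among the 10640 other genes of at least 10 CPM. Across them the correlation with the mean profile of the 7 genes had a median of -0.09 and exceeded 0.9 for 0.705%. The 6 closest were 0610010F05Rik (r = 0.988), Aqp11 (0.987), Fgd3 (0.982), Mob1b (0.982), Lpar1 (0.980) and Vldlr (0.975), over 6 libraries. Vldlr is a lipoprotein receptor that also binds reelin, Lpar1 a receptor for lysophosphatidic acid that is found in oligodendrocytes, and Aqp11 an intracellular aquaporin. Of the sterol genes listed separately, Nsdhl ranked 25 (r = 0.942) and Stard4 26 (0.942).

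Levels were compared between genes per kilobase of merged exons. Hmgcs1 was the highest at 48.6 ± 3.09 CPM per kilobase in WT, followed by Insig1 (19.3 ± 1.48), Cyp51 (13.5 ± 0.702), Sqle (8.94 ± 0.454), Dhcr7 (5.16 ± 0.583), Lss (4.93 ± 0.445) and Idi1 (2.94 ± 0.181; SD, n = 3). Dhcr7 and Lss did not differ beyond their spread, and the ranges of the other neighbours over the 3 WT libraries did not overlap. The same order was found in KO. With the length of the longest transcript in its place, Sqle and Dhcr7, at 11.1 ± 0.564 and 10.7 ± 1.21 CPM per kilobase in WT, no longer differed beyond their spread, and Dhcr7 and Lss no longer overlapped. In KO, Dhcr7 at 10.4 then stood above Sqle at 10.2 CPM per kilobase, within their spread.

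The other enzymes of the route were read from a list of 16 genes, all tested. Of these, 10 were lower and 6 higher in KO, beside 49.9% of all genes lower. In edgeR 0 passed an adjusted or unadjusted threshold, and the median log2 fold change was -0.04. Msmo1, which removes further methyl groups after Cyp51, had -0.13 (SE 0.0649, adjusted p = 0.651), and Mvk, the mevalonate kinase, had 0.12 (SE 0.0799, adjusted p = 0.749). Fdps, which makes farnesyl diphosphate, had only 50 to 85 counts per library. In GENCODE M21, 16 of its 20 annotated exons overlap those of Gm43738 on the same strand, and reads in such overlaps are not counted, so its level is not that of the gene. Counted with the 6 enzymes among the 7 genes, all 6 of them lower, 16 of 22 synthesis genes were lower in KO, with a median of -0.05. The 16 include Fdps, and the share of all genes lower was 49.9%.

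**Figure D3:**
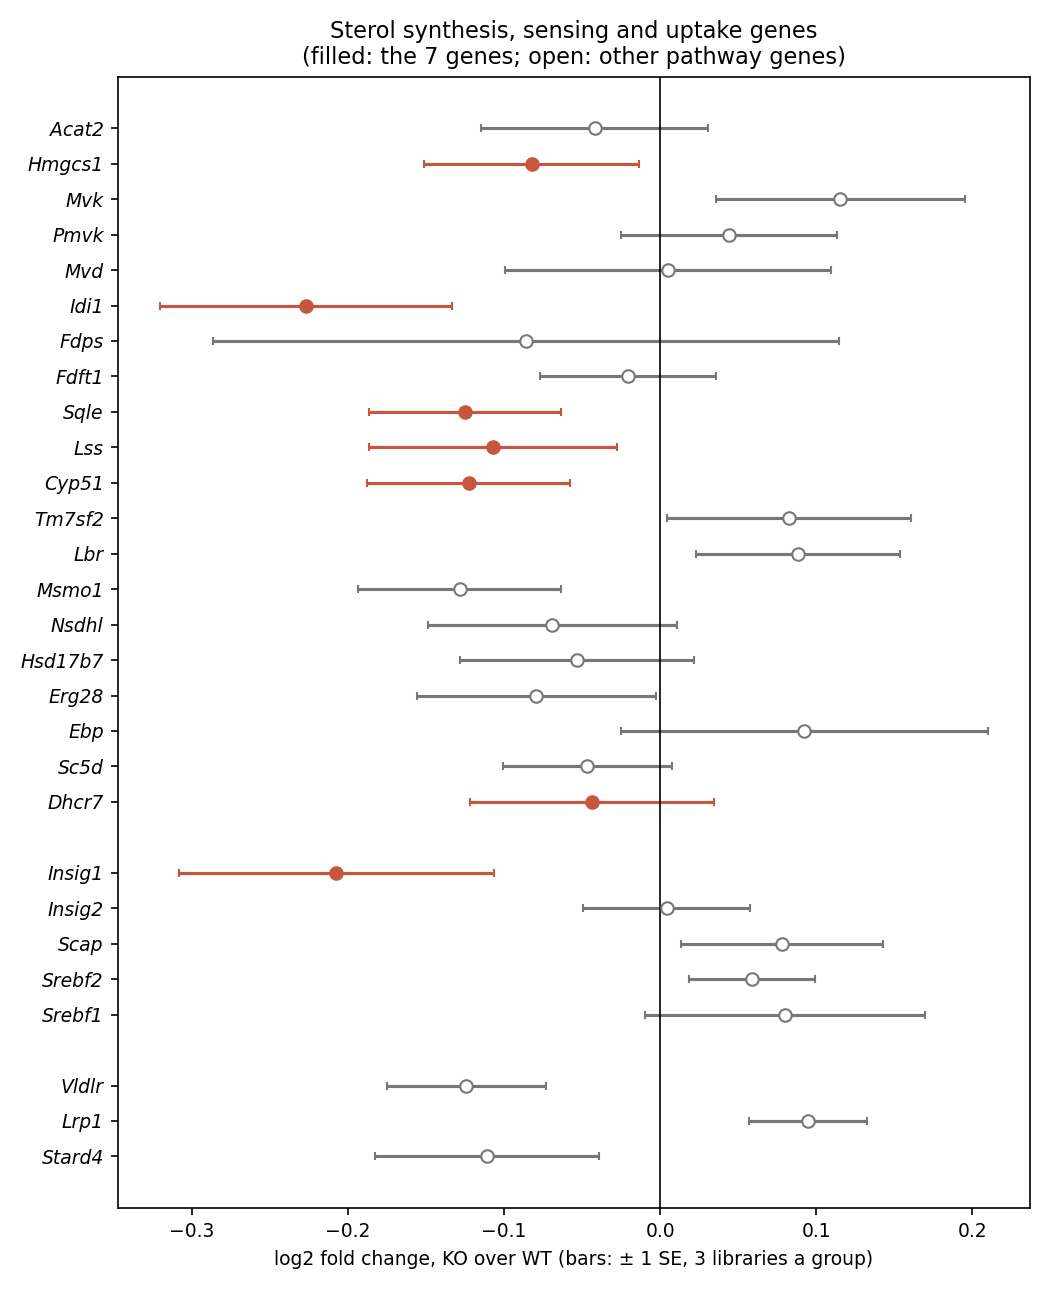
Log2 fold change of KO over WT (points, with bars of 1 SE) for synthesis enzymes in the order of the route, then for sterol sensing and uptake genes. Some genes of the lists are not drawn. Filled points are the 7 genes, all left of 0, from -0.23 for Idi1 to -0.04 for Dhcr7; open points are the other pathway genes and lie on both sides.

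Of 14 sterol sensing and SREBP control genes, 3 were lower and 11 higher in KO, with a median of 0.05. Over all genes tested 49.9% were lower, and among those at least as abundant as Idi1 44.7% were, with a median of 0.012. None of the 14 passed the adjusted threshold. Without adjustment 1 was lower, against 3.38% of all genes, and 1 was higher, against 4.54%. Srebf2, which encodes SREBP-2, was 179, 183 and 180 CPM in WT and 188, 184 and 192 CPM in KO. Every KO library was above every WT library, by a small margin, which held for 7.46% of all genes. In edgeR the log2 fold change of Srebf2 was 0.06 (SE 0.0403, adjusted p = 0.746). For Insig2, the paralog of Insig1, the log2 fold change was 0.0042 (SE 0.0537), and all 6 of its values lay between 37.0 and 39.7 CPM. The smallest p-values in the list belonged to Aup1, a protein of endoplasmic reticulum degradation (0.19, SE 0.0626, adjusted p = 0.576), and Mbtps2, the protease that makes the final cut in SREBP (-0.15, SE 0.0573, adjusted p = 0.600).

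Among 16 genes of sterol uptake and transport, 7 were lower and 9 higher, and none passed the adjusted threshold. In edgeR 1 in each direction had an unadjusted p-value under 0.05, against 3.38% of all genes lower and 4.54% higher. These were Vldlr, at -0.12 (SE 0.0509, adjusted p = 0.614), and Lrp1, a large endocytic lipoprotein receptor, at 0.10 (SE 0.0379, adjusted p = 0.606).

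The 15 genes of sterol efflux, esterification and breakdown had a median of 0.05, with 4 lower and 11 higher, beside 49.9% of all genes lower. None passed the adjusted threshold, and 3 were higher at the unadjusted one, against 4.54% of all genes. Apoe, the main apolipoprotein of the brain, averaged 549 ± 38.9 CPM among WT and 634 ± 42.7 CPM among KO libraries (SD, n = 3), a log2 fold change of 0.21 (SE 0.0594, adjusted p = 0.576). Abcg1, a sterol exporter and target of the oxysterol receptors, had 0.11 (SE 0.0442, adjusted p = 0.600). Both were among the 3 of the 15 genes with every KO library above every WT library, against 7.46% of all genes. Of 14 fatty acid synthesis genes, 7 were lower and 7 higher around a median of -0.0012, and the smallest p-values belonged to Acaca, the acetyl-CoA carboxylase (-0.11, SE 0.0488, adjusted p = 0.622), and Scd1, a desaturase (-0.15, SE 0.0740, adjusted p = 0.647). In the non-sterol isoprenoid branch, which leads to prenyl groups, dolichol and ubiquinone, 11 of 12 genes were tested, 6 lower and 5 higher, with a median of -0.01 and none past either threshold. Dhdds (0.09, SE 0.0491) and Pdss1 (-0.08, SE 0.0679) had its smallest p-values.

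Markers of brain cell types were read beside these values. Of 12 oligodendrocyte markers 10 were lower in KO, against 49.9% of all genes, with a median log2 fold change of -0.11. At the unadjusted threshold 3 of them were lower, against 3.38% of all genes, and none passed the adjusted one. The summed abundance of the 12 was 4478 to 4912 CPM in WT and 3855 to 4595 CPM in KO, and no marker was at 0. By library, their median deviation from the WT mean was 0.08, -0.03 and -0.05 in WT and 0.03, -0.19 and -0.23 in KO, so the same KO libraries, 2 and 3, were low as for the 7 cholesterol genes. Mbp, the most abundant, had -0.10 (SE 0.0613). Divided by the summed oligodendrocyte markers, the summed 7 genes differed from the WT mean by 0.01, -0.03 and 0.02 in WT and by 0.04, -0.06 and 0.10 in KO on the log2 scale, which overlap. Divided by the summed neuron markers, they differed by 0.12, -0.06 and -0.06 in WT and by 0.03, -0.20 and -0.09 in KO, which also overlap. Against the summed astrocyte markers the values were 0.11, -0.05 and -0.07 for WT and 0.04, -0.19 and -0.09 for KO, and these overlap too. The part of the oligodendrocyte signal in the lower values was not tested.

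Markers of other cell types are given as counts and ranges. Those of oligodendrocyte precursors (8 genes, 2 lower, median 0.01), astrocytes (9 genes, 4 lower, median 0.0018) and neurons (10 genes, 7 lower, median -0.02) had summed abundances of 461 to 521, 4891 to 5127 and 4801 to 5064 CPM in KO, against 487 to 494, 5083 to 5284 and 4952 to 5161 CPM in WT. At the unadjusted level 1 astrocyte marker was lower and 3 were higher, and 1 microglia marker was lower. Higher at that level were 2 choroid plexus markers and 1 blood cell marker, and no marker of precursors, neurons or endothelium was past it. Over all genes tested, 3.38% were lower and 4.54% higher at that level. Microglia (8 genes, median -0.03) and endothelial markers (7 genes, median 0.04) also lay on both sides. Beside 49.9% of all genes lower in KO, all 8 choroid plexus markers and all 5 blood cell markers were higher, with medians of 0.18 and 0.52. Their summed abundances were 390.5 to 466 against 332 to 386 CPM, and 98.3 to 247 against 109 to 149 CPM. No marker of any list was at 0, and none passed the adjusted threshold.

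**Figure D4:**
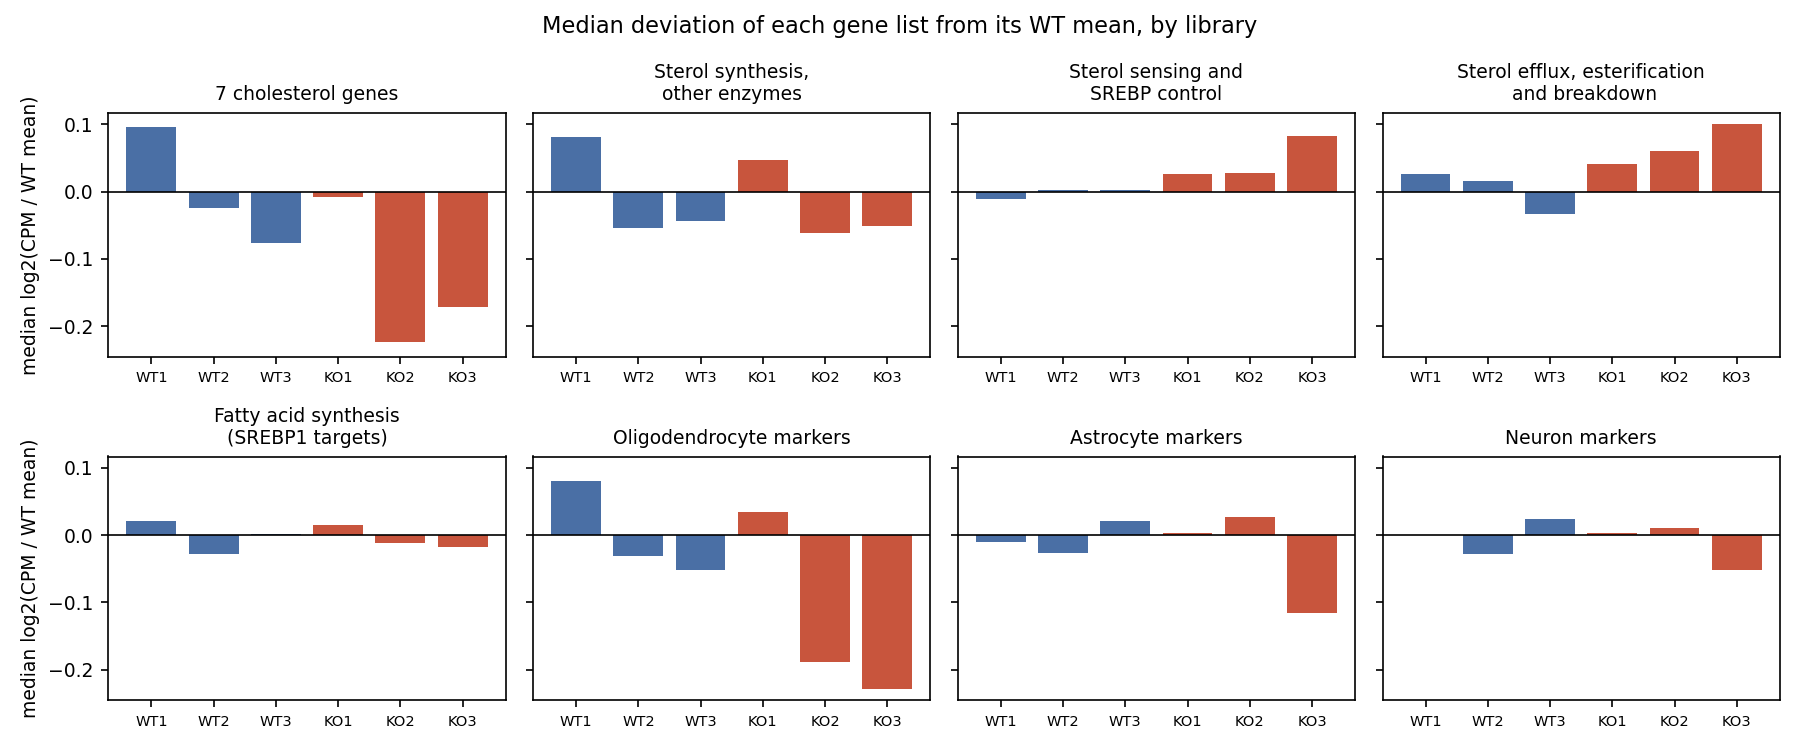
Median over the genes of each list of log2 CPM relative to the gene's WT mean (vertical axis, shared) in WT (blue) and KO (red) libraries. The 7 cholesterol genes (-0.22 and -0.17) and the oligodendrocyte markers (-0.19 and -0.23) are lowest in KO libraries 2 and 3. Sensing genes (0.03 to 0.08) and efflux genes (0.04 to 0.10) are above 0 in all 3 KO libraries. Sensing genes are also above 0 in WT libraries 2 and 3 (0.0018 and 0.0030), and efflux genes in WT libraries 1 and 2 (0.026 and 0.016).

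Antisense counts were few for the 7 genes, from 0.0380% of both strands for Lss to 6.59% for Sqle. In the 3 genes with enough of them to test (Cyp51, Hmgcs1 and Sqle) the opposite-strand counts had log2 fold changes of 0.18, 0.15 and -0.12 and edgeR adjusted p-values of at least 0.962.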

How the data were processed

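Total RNA of whole brain, size-selected for long molecules, was sequenced from 3 TRMT1L KO and 3 WT samples, and the authors deposited raw counts per gene for each library in the layout of the aligner STAR. The submitters' processing notes name cutadapt 1.9.1 and STAR 2.7.0f, with no roles. The genome build and annotation are not given in the sources used here. The 55450 gene identifiers equal those of GENCODE M21 (GRCm38), which supplied names, positions and lengths. The last strand column, which held 94.6% to 94.8% of stranded counts, was used. Rows naming no gene held 57.7% to 60.2% of reads and were left out. In R 4.3.3, genes were filtered with filterByExpr, scaled by TMM and tested with edgeR 4.0.16 (quasi-likelihood, genotype only, Benjamini-Hochberg over 21237 genes). SE is the log2 fold change over the square root of F. P-values set the difference between KO and WT against the spread between these libraries, which edgeR estimates with information from all genes. Libraries of a group differed by more than sampling noise (chi-square per degree of freedom at least 4.40). Similar transcripts were sought with blastn 2.17.0.

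The 7 genes and all lists were chosen with earlier results of these data known. Named genes are the 7, Trmt1l, Srebf2 and Insig2, the 2 smallest p-values of each pathway list, at most 2 abundant markers a list, and the 6 genes nearest in pattern; Fdps, Nsdhl and Stard4 were chosen after their values were seen, and some genes the rule names are not reported here. Alternatives covered the unstranded column, scaling, filters, DESeq2 1.42.0 (also, chosen after seeing the data, without independent filtering), limma-voom (limma 3.58.1), GC content, the replicate number as a block and leaving out each library.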

Additional observations from a re-analysis of the deposited data

How the results depend on the processing

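No alternative gave any of the 7 genes an adjusted p-value under 0.05 (smallest 0.101, for Insig1 without a filter), and 118 of 119 refitted fold changes were below 0; the exception was Dhcr7 at 0.019 without WT library 1, in a range from -0.13 to 0.019 with 1 library left out. The number of the 7 genes with an unadjusted p-value under 0.05 was 2 without a filter on low counts (against 2.59% of all genes lower in KO), 2 with the replicate block (2.75%), 2 with the replicate block and GC correction (1.98%), and 0 with GC correction alone (2.30%), and it ranged from 0 to 6 when 1 library was left out (2.04% to 3.78%). Under GC correction 0 of the 7 genes had groups that did not overlap, against 5.60% of all genes lower in KO, and with 1 library left out from 1 to 5 did, against 10.9% to 13.1%, the 5 without KO library 1. The cause was not tested. Their median log2 fold change stayed between -0.18 and -0.08. Over all genes, the count past the adjusted threshold was 2, against 298 without a filter, 26 with DESeq2, 15 with DESeq2 without its independent filtering (chosen after seeing the data), 4 with the replicate block, and 2 to 5 with 1 library left out. Over all genes tested, same-numbered KO and WT libraries gave no sign of pairing (correlations of deviations 0.040, -0.031 and -0.058). The summed abundance of the 7 genes, however, was highest in library 1 and lowest in library 2 of both genotypes. With the replicate block the SE of Insig1 went from 0.101 to 0.0777, of Hmgcs1 from 0.0689 to 0.0512 and of Idi1 from 0.0936 to 0.0940. Pairing within the 7 genes was not tested. The replicate block changed no adjusted call among them. Idi1 had 286 to 401 counts a library, the fewest of the 7, and DESeq2's independent filtering left adjusted p-values for 4768 genes, among them 4 of the 7 but not Trmt1l.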
